A study of Rattus norvegicus with 36 samples.

Results

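The salt response of the aortic microRNAs was compared between the congenic rat strain S2Bb and its parent, the Dahl salt-sensitive strain (SS). The quantity tested was the response of S2Bb (high minus normal salt) minus the response of SS, so that 0 stands for an equal response in both strains. It was computed in 22 of the 34 libraries in the deposited table, from 36 samples in the labels. These were 5 SS libraries on the normal-salt diet (NSD), 5 SS on the high-salt diet (HSD, 4% NaCl), 6 S2Bb on NSD and 6 S2Bb on HSD. MicroRNAs with at least 1 normalized read per mega reads (nRPM; below, M is short for mega) in at least 5 of the 22 libraries were tested. Of 835 names, 470 passed, 267 with a miRBase name and 203 listed as miR-n with a number, a form that the labels do not define.

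SS rats become hypertensive when fed salt. S2Bb carries the middle segment of chromosome 2 from the Brown Norway (BN) strain on the SS background, and S2Ba, the other congenic strain of the series, the distal portion. All animals were male, went on their diet at an age of 4 to 6 weeks and were kept on it until 12 to 13 weeks. Small RNA was sequenced from a piece of the thoracic descending aorta, and the series title names genes that modulate vascular inflammation as its subject. Each segment holds many genes, and the labels give neither its borders nor the sodium content of the normal diet. Each title carries a number of its own, taken here as 1 animal, and replicates are numbered in accession order.

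A microRNA is cut from a hairpin precursor into a short single strand, which guides Argonaute proteins to messenger RNAs. Pairing runs mainly through the seed, bases 2 to 8, so that microRNAs with the same seed share many targets. In the vessel wall, miR-143 and miR-145 mark contractile smooth muscle, miR-126 the endothelium, miR-142 and miR-223 white blood cells, and miR-451 and miR-144 red blood cells. miR-146a and miR-146b dampen signalling to NF-kappaB, and miR-132 and miR-212 share a transcript induced by CREB.

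The libraries held 2.31 to 42.4 M recovered reads (median 19.4 M). The smooth muscle microRNA miR-143-3p held 46.8 to 60.0% of the reads in 21 libraries, which fits the labelled tissue, and 31.7% in SS HSD replicate 2. That library was the shallowest, had 338 of 835 names at 0 and stood apart on the first principal component, with a score of -21.8 where the next largest was 8.10 in size. SS NSD replicate 1 and S2Ba NSD replicate 4 held identical values for all 835 names, so at least 1 of these labels cannot be right, and both were left out. SS HSD replicate 3 has no column in the table used and was not analysed here. The numbers in the titles are lower on normal than on high salt, except in S2Bb HSD replicates 2 and 3, which have the lowest of all. An effect of that order and one of diet cannot be told apart in SS. For S2Bb, the separation of diet from number rests on HSD replicates 2 and 3 alone. Every S2Bb number on normal salt was also lower than every SS number on that diet, so number went with strain there. A part of this order in the difference between the strains was not tested.

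The sequences of the microRNAs on which the results turn are shown first, because several of them are near-identical pairs whose reads a counting step could mix. They are the mature strands of RefSeq (GRCr8), 5′ to 3′, with the seed in capitals, and 240 of the 267 miRBase names tested were found there. The first pair shares its seed with no other tested microRNA for which RefSeq gives a sequence, and the same holds for the pairs of miR-196 and miR-146.
miR-204-5p: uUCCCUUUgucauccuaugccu
miR-211-5p: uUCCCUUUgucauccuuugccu
miR-196b-5p: uAGGUAGUuuccuguuguuggg
miR-196a-5p: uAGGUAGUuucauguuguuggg
miR-146b-5p: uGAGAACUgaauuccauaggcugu
miR-146a-5p: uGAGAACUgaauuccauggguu
miR-138-5p: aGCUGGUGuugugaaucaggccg
miR-221-5p: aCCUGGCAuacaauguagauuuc
miR-199a-5p: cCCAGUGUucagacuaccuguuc
miR-223-3p: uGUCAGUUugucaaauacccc

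Counted from the 5′ end, miR-211-5p differs from miR-204-5p by A17U alone, and both have 22 bases. miR-196a-5p differs from miR-196b-5p by C12A. miR-146a-5p differs from miR-146b-5p by A18G and C21U and is 22 instead of 24 bases long. None of these changes lies in a seed.

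One microRNA, miR-204-5p, differed between the strains in its response to salt. It fell on high salt in S2Bb and did not pass the test in SS, where its mean was higher on high salt. The limma test called 1 of 470 microRNAs (0.213%) at a Benjamini-Hochberg adjusted p under 0.05, with 0 calls in the higher direction. At an unadjusted p under 0.05 there were 36 (7.66%), of which 20 (4.26%) were higher and 16 (3.4%) lower in S2Bb than in SS.

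miR-204-5p lies on the plus strand of chromosome 1 (GRCr8 chr1:229743493-229743514), inside Trpm3, which encodes a cation channel, and is abundant in epithelia of the eye and kidney. In SS NSD replicates 2 to 6 it stood at 197, 281, 144, 291 and 362 nRPM. In SS HSD replicates 1, 2, 4, 5 and 6 it stood at 312, 407, 297, 261 and 259 nRPM. The SS diet groups overlapped, and 2 of the 5 normal-salt values lay below all of the high-salt values. S2Bb NSD replicates 1 to 6 held 463, 530, 346, 432, 498 and 362 nRPM. S2Bb HSD replicates 1 to 6 held 164, 195, 178, 216, 248 and 245 nRPM. Every S2Bb library on high salt lay below every S2Bb library on normal salt, and also below every SS library on high salt.

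The group means of miR-204-5p were 255 ± 85.4 (SD, n = 5) in SS NSD, 307 ± 60.5 (SD, n = 5) in SS HSD, 439 ± 73.4 (SD, n = 6) in S2Bb NSD and 207 ± 34.8 (SD, n = 6) in S2Bb HSD nRPM. On the log2(value + 1) scale the response in S2Bb was -1.08 ± 0.19 (SE, limma adjusted p = 0.00197) and that in SS 0.32 ± 0.21 (SE, limma adjusted p = 0.449). Their difference was -1.40 ± 0.28 (SE), with a 95% interval of -1.98 to -0.81 and a limma adjusted p of 0.0232. S2Bb had the highest mean of the 4 groups on normal salt and the lowest on high salt. The strain difference was 0.84 on normal salt (adjusted p = 0.0645) and -0.56 on high salt (adjusted p = 0.456), and neither was called.

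**Figure D1:**
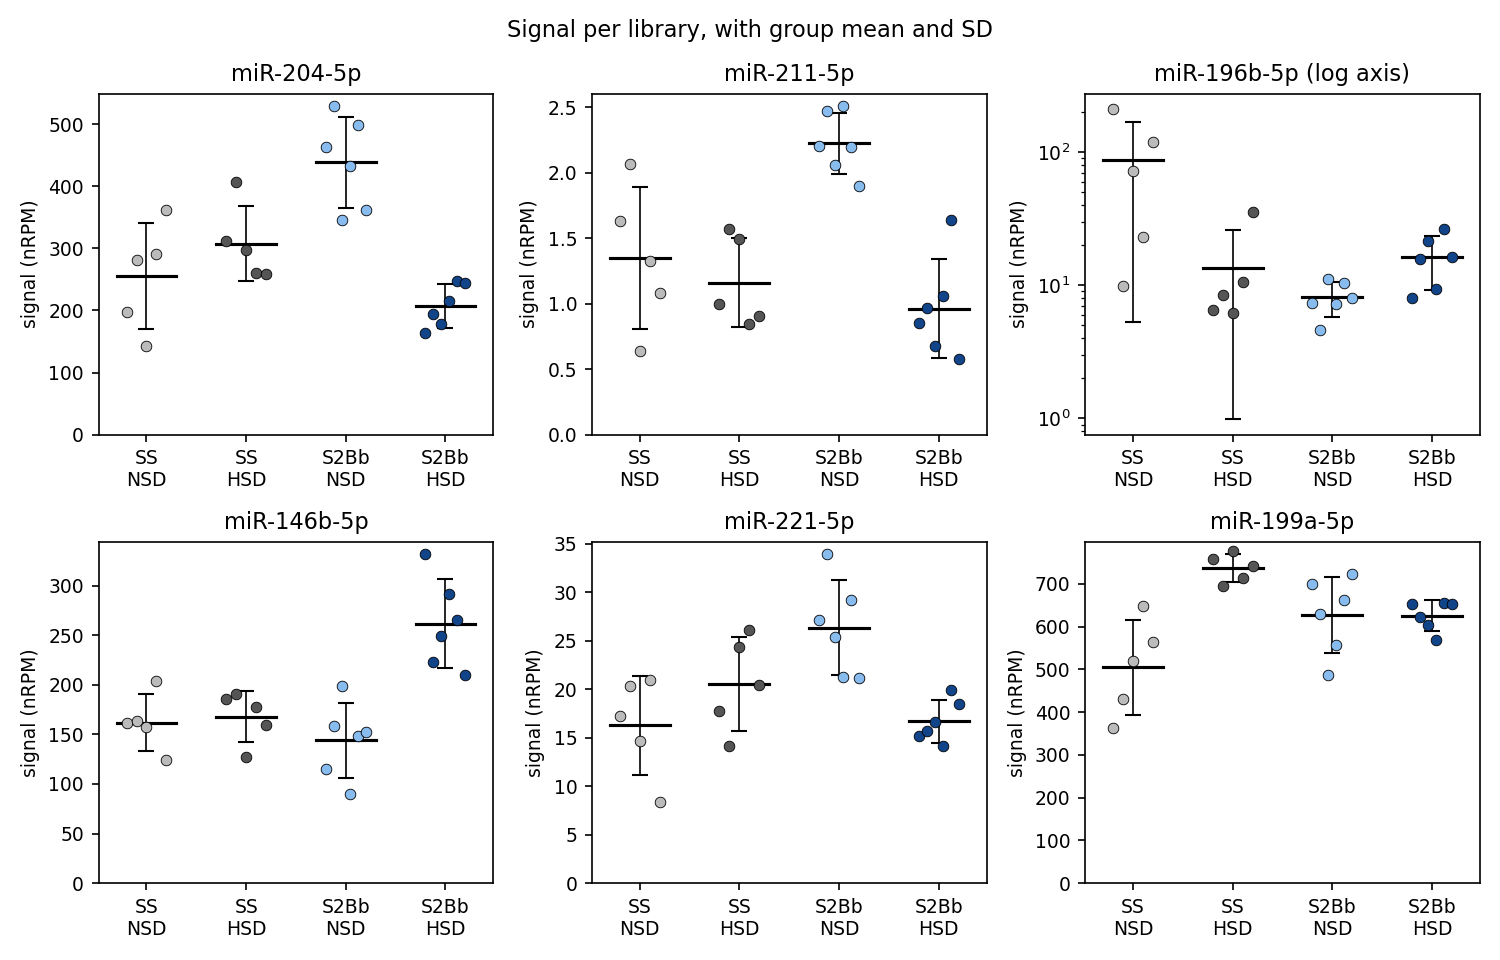
Signal in nRPM (y axis) of 6 microRNAs in each of the 22 libraries, by strain and diet (x axis); points are libraries, the thick line is the group mean and the bar its SD, and only the miR-196b-5p panel has a log axis. For miR-204-5p the S2Bb libraries lie at 346 to 530 on normal salt and 164 to 248 on high salt, while the SS groups overlap.

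The estimate for miR-204-5p held its size, and the call did not always hold. Leaving out 1 library at a time gave -1.54 to -1.21, with adjusted p from 0.00408 to 0.0646 and a call in 14 of 22 fits. The adjusted p rose to 0.0563, 0.0520 and 0.0576 without S2Bb HSD replicate 1, 2 or 3, and to 0.0510, 0.0548 and 0.0553 without S2Bb NSD replicate 1, 2 or 5. It rose to 0.0541 without SS HSD replicate 1 and to 0.0646 without SS NSD replicate 2. Without the shallow SS HSD replicate 2 the difference was -1.29 and was still called (adjusted p = 0.0477). Without both S2Bb HSD replicates with low numbers it was -1.33 (adjusted p = 0.148), while those 2 libraries held 178 and 195 nRPM, within the 164 to 248 nRPM of the other 4. Scaling to total reads gave -1.46 (adjusted p = 0.0878).

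**Figure D2:**
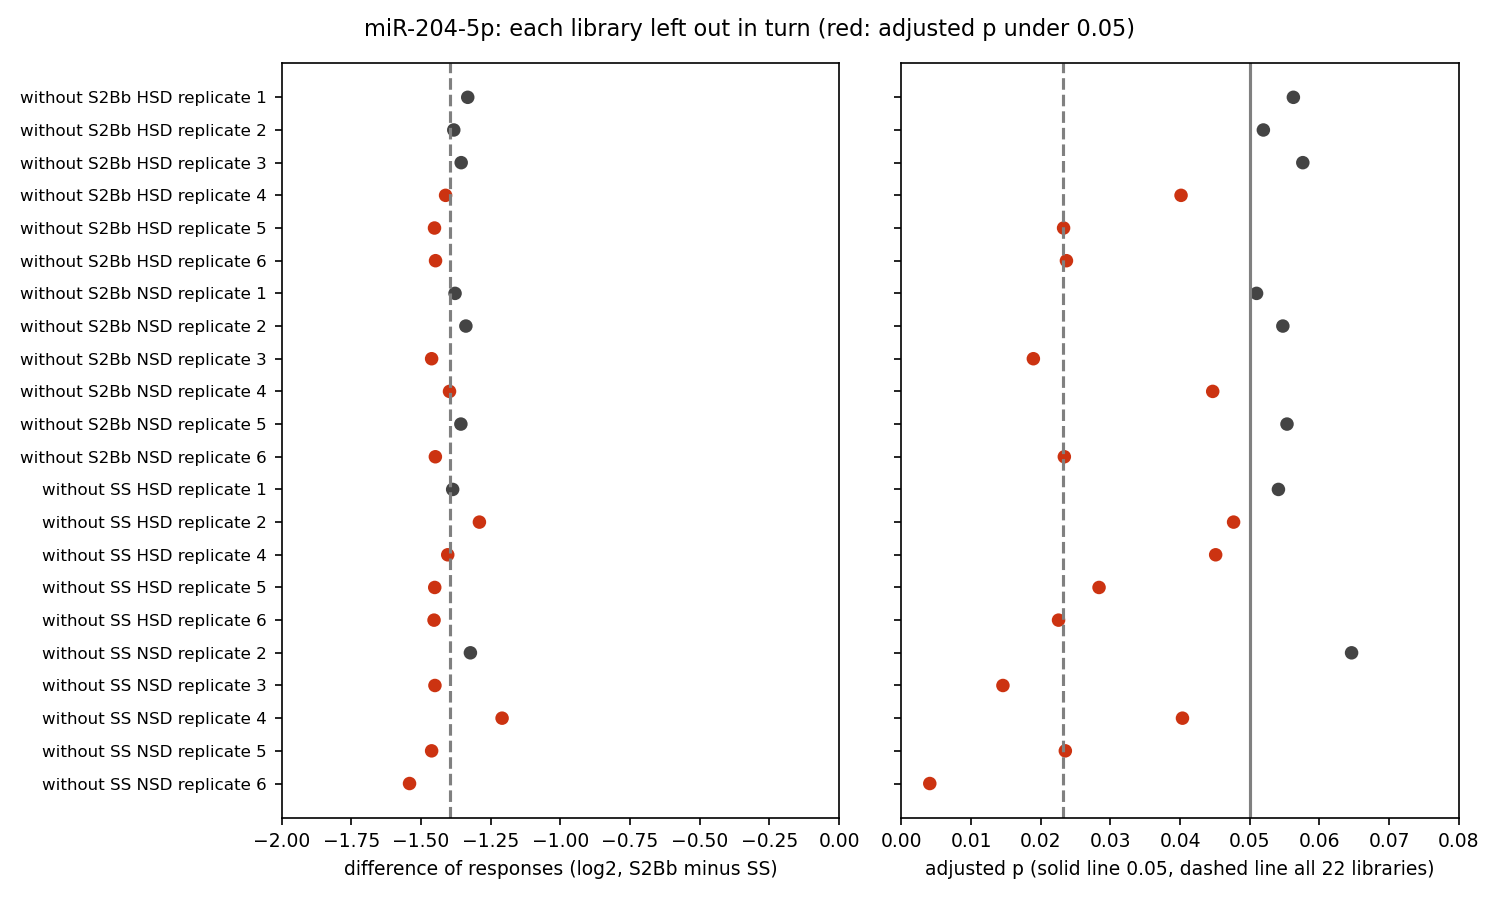
The difference of salt responses of miR-204-5p (left, log2, S2Bb minus SS) and its adjusted p (right) when each of the 22 libraries (y axis) is left out; dashed lines give the values with all 22 libraries, the solid line an adjusted p of 0.05, and red points are calls. The estimate stays between -1.54 and -1.21, and 8 of the 22 fits lie above the line of 0.05.

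S2Ba, labelled as carrying the distal BN portion of the chromosome, gave miR-204-5p means of 222 ± 44.5 (SD, n = 5) nRPM on normal and 177 ± 45.8 (SD, n = 5) nRPM on high salt. In the limma fit of all 6 groups its response was -0.35 (adjusted p = 0.605), between those of the other strains. The response of S2Bb minus that of S2Ba was -0.73 ± 0.28 (SE, unadjusted p = 0.0152, adjusted p = 0.782). The response of S2Ba minus that of SS was -0.67 ± 0.30 (SE, unadjusted p = 0.0324, adjusted p = 0.620). The fall in S2Bb was therefore not shown to differ from the response of S2Ba.

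miR-211-5p, the seed partner of miR-204-5p, lies on the same chromosome (GRCr8 chr1:127189353-127189374) inside Trpm1, a relative of Trpm3, and is best known from pigment cells. It was far rarer, with a mean of 1.44 nRPM. S2Bb libraries held 1.90 to 2.51 nRPM on normal salt (median 2.20) and 0.577 to 1.64 nRPM on high salt (median 0.910), with no overlap. The SS libraries held 1.63, 2.07, 0.641, 1.32 and 1.08 nRPM on normal salt, and 0.999, 1.57, 1.49, 0.842 and 0.905 nRPM on high salt, which overlapped. miR-211-5p fell in S2Bb by 0.73 (log2, limma adjusted p = 0.0165) and its SS response was -0.10. The difference was -0.63 (95% interval -1.15 to -0.11, unadjusted p = 0.0198, adjusted p = 0.595), in the direction of miR-204-5p and not called. The level of miR-211-5p was 0.236 to 0.827% of that of miR-204-5p across the libraries. Since they differ by 1 base, part of it could be reads of miR-204-5p counted under the other name, which was not tested.

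The diet alone gave 16 calls in S2Bb (3.4% of 470), 8 higher (1.7%) and 8 lower (1.7%), and 0 in SS (0%). An unadjusted p under 0.05 was reached by 69 microRNAs (14.7%) in S2Bb and 66 (14%) in SS, and in SS edgeR called 4 and DESeq2 12. The difference in the number of calls is not a difference of responses, and the test of that difference called miR-204-5p alone among the 16. Of the 16, 15 had an SS response of the same sign and 15 an SS response of smaller size, and for 9 the 95% interval of the difference contained 0. These 16 were selected on the S2Bb response, which is 1 side of the difference, so their larger size in S2Bb is a description.

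miR-138-5p, abundant in brain, showed the largest rise in S2Bb, by 2.05 (log2, adjusted p = 4.14e-04). It held 2.51 to 4.23 nRPM (median 3.26) in S2Bb NSD and 6.22 to 44.4 nRPM (median 16.7) in S2Bb HSD. In SS it held 3.44, 4.46, 9.29, 4.97 and 9.59 nRPM on normal salt and 10.3, 18.5, 7.88, 11.1 and 13.01 nRPM on high salt. The diets separated in S2Bb and overlapped in SS. The SS response was 0.88, and the difference of 1.17 (95% interval 0.22 to 2.12) had an unadjusted p of 0.0184 and an adjusted p of 0.595.

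miR-146b-5p, a brake on NF-kappaB signalling, gave the smallest p among these 16 after miR-204-5p. It held 90.1 to 199 nRPM (median 150.3) in S2Bb NSD and 210 to 332 nRPM (median 257) in S2Bb HSD. SS libraries held 162, 163, 157, 203.7 and 124 nRPM on normal salt and 185, 190, 127, 177 and 160 nRPM on high salt. All S2Bb libraries on high salt lay above all other libraries, and the other 3 groups overlapped. The rise in S2Bb was 0.88 (adjusted p = 0.00369), the SS response 0.05 and the difference 0.83 ± 0.26 (SE, 95% interval 0.29 to 1.37, unadjusted p = 0.00403, adjusted p = 0.379). Its seed partner miR-146a-5p had a difference of 0.56 (95% interval -0.18 to 1.31).

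miR-132-3p and miR-212-5p come from 1 transcript and are not separate observations. Both rose in S2Bb, by 1.48 and 1.07. miR-212-5p held 0.199 to 0.598 nRPM in S2Bb NSD and 1.21 to 3.58 nRPM in S2Bb HSD. In SS it held 0.362 to 0.773 nRPM on normal and 0.283 to 0.895 nRPM on high salt, apart from 2.51 nRPM in the shallow SS HSD replicate 2, where 3 reads equal 0.941 nRPM. The differences were 0.78 (95% interval 0.13 to 1.43, unadjusted p = 0.0210) for miR-212-5p and 0.66 (-0.22 to 1.55) for miR-132-3p.

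Several other microRNAs with a mean of at least 10 nRPM fell in S2Bb. miR-210-3p, which is induced by hypoxia, held 27.3 to 34.98 nRPM in S2Bb NSD and 16.8 to 21.4 nRPM in S2Bb HSD, and fell by 0.67 (adjusted p = 0.0114). In SS it held 30.3, 26.2, 20.9, 20.8 and 25.8 nRPM on normal and 17.4, 29.2, 19.4, 16.1 and 22.2 nRPM on high salt. The SS diets overlapped, and the difference was -0.41 (95% interval -0.86 to 0.04). miR-152-5p, the minor strand of a precursor inside Copz2, fell by 1.01 in S2Bb and gave a difference of -0.77 (-1.52 to -0.02, unadjusted p = 0.0444). miR-345-5p fell by 0.78, with an SS response of -0.03 and a difference of -0.75 (-1.38 to -0.12, unadjusted p = 0.0221). miR-133b-3p, of striated muscle, fell by 0.89 and gave a difference of -0.40 (-1.14 to 0.33).

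Of 11 tested members of the miR-30 family 3 rose in S2Bb (miR-30b-3p, miR-30d-5p and miR-30d-3p), and 4 had an S2Bb estimate below 0. Of all 470, 1.7% were called higher in S2Bb and 52.6% had an S2Bb estimate above 0. The strands miR-30d-5p and miR-30d-3p come from 1 hairpin and are not separate observations. miR-30d-5p rose by 0.61 in S2Bb, and its SS response was 0.49. miR-30b-3p rose by 1.09 in S2Bb, beside an SS response of 1.21. Their differences were 0.12 (95% interval -0.37 to 0.61) and -0.12 (-0.997 to 0.76), which still leaves room for an unequal response. miR-30d-3p rose by 0.82, beside an SS response of 0.36, with a difference of 0.46 (0.28 without SS HSD replicate 2). miR-92b-3p, a chromosome 2 microRNA, rose by 1.22 with a difference of 0.46 (-0.45 to 1.38), or 0.90 without SS HSD replicate 2. miR-n260 and miR-n266 fell by 0.65 and 0.71, with differences of -0.36 and -0.30.

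**Figure D3:**
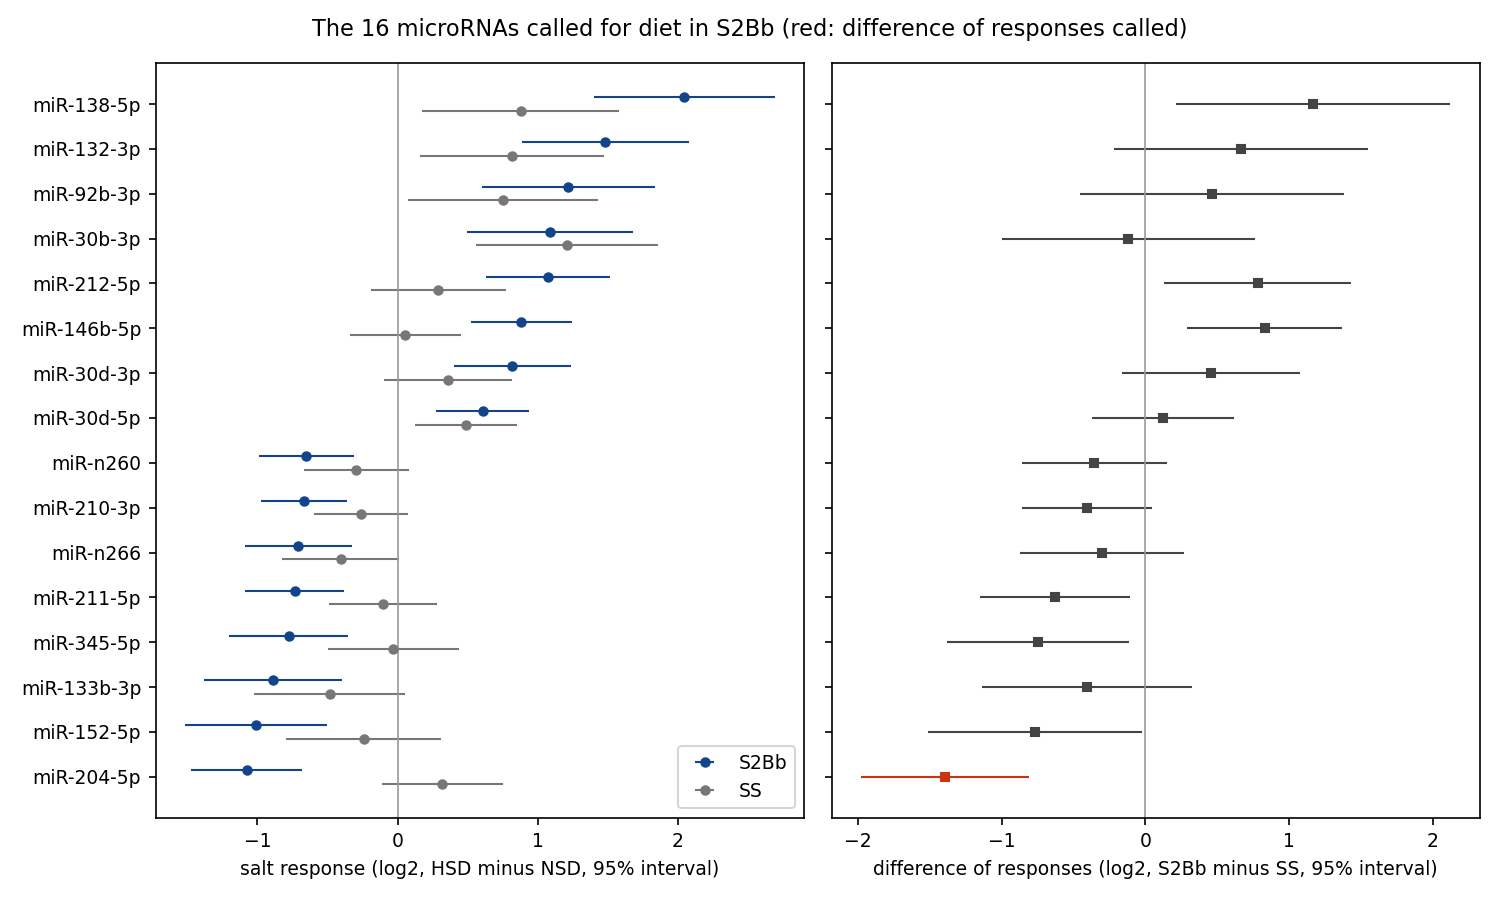
The 16 microRNAs called for diet in S2Bb (y axis), with the salt response in S2Bb and SS (left) and the difference of responses (right), each as a log2 estimate with its 95% interval. The SS estimate lies nearer to 0 than that of S2Bb for 15 of the 16, and the interval of the difference excludes 0 for 7, with miR-204-5p in red as the only call.

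Across all 470 microRNAs the responses of the strains, which share no library, had a Pearson correlation of 0.344 and a Spearman correlation of 0.361, and 288 (61.3%) had the same sign. Without SS HSD replicate 2 the Pearson correlation was 0.355, and it was 0.382 over the 206 microRNAs with a mean of at least 10 nRPM. Of the 36 microRNAs with an unadjusted p under 0.05 for the difference, 26 had responses of opposite sign, against 182 of the 470, a property the choice by difference favours. An unadjusted p under 0.05 was reached by the S2Bb response in 22 of the 36 and by the SS response in 9. Over all 470 the shares were 14.7% in S2Bb and 14% in SS. Both responses enter the difference by which the 36 were chosen, so these counts are a description.

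**Figure D4:**
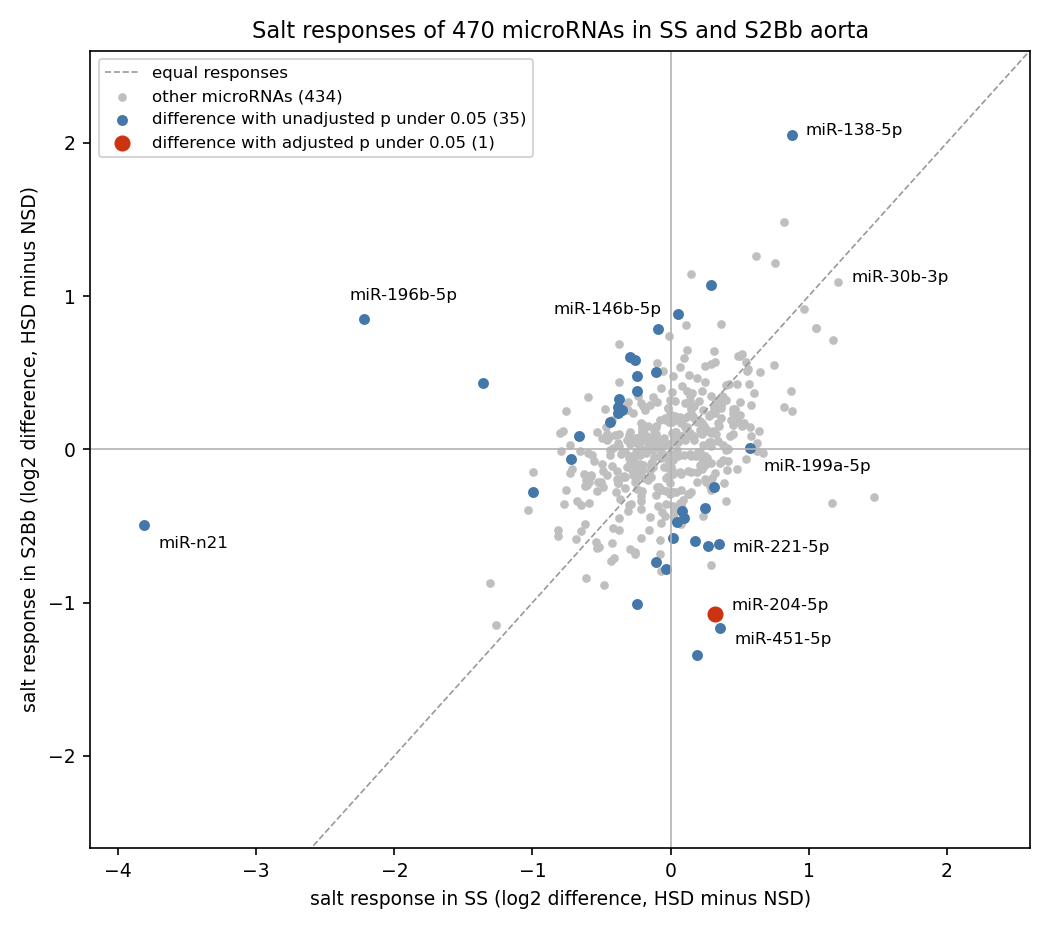
Salt response in SS (x axis) against that in S2Bb (y axis), each as a log2 difference of high minus normal salt, for 470 microRNAs; the dashed line marks equal responses. miR-204-5p (red) lies at 0.32 and -1.08, and the 35 blue points have an unadjusted p under 0.05 for the difference.

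Among the microRNAs higher in this contrast, miR-196b-5p had the smallest p and the largest difference of any with a miRBase name, and its call was uncertain. It is encoded in a Hox gene cluster and marks position along the body axis. SS NSD replicates 2 to 6 held 210, 9.89, 71.4, 22.9 and 118 nRPM. The SS HSD libraries held 6.47, 8.47, 6.17, 10.6 and 35.5 nRPM. S2Bb libraries held 4.63 to 11.2 nRPM (median 7.70) on normal salt and 8.00 to 26.6 nRPM (median 16.1) on high salt. The high values were those of SS NSD, which spread over a wide range, and the diets overlapped in both strains. The responses were -2.22 in SS and 0.85 in S2Bb, and the difference was 3.07 ± 0.77 (SE, 95% interval 1.48 to 4.67, limma adjusted p = 0.134). It was called in the fit of all 6 groups (adjusted p = 0.0369), with the filter at 10 nRPM (adjusted p = 0.0417), by edgeR (adjusted p = 0.0423) and by DESeq2 (adjusted p = 2.43e-04). It was also called without SS NSD replicate 3 (adjusted p = 0.00638) or SS HSD replicate 6 (adjusted p = 0.0226). These libraries held the lowest SS NSD and the highest SS HSD value, so leaving either out enlarges the difference. In all it was called in 4 of 17 alternatives and in 2 of 22 fits with 1 library left out. The limma adjusted p reached 0.457 in the alternatives and 0.343 with 1 library left out.

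The name with the largest difference of all 470, miR-n21, is named here for that value. It held 19.7 to 15342 nRPM (median 749) in SS NSD, against 18.1 to 71.6 nRPM in SS HSD, 17.7 to 84.9 nRPM in S2Bb NSD and 14.4 to 99.2 nRPM in S2Bb HSD. The difference was 3.32 ± 1.49 (SE, unadjusted p = 0.0360, adjusted p = 0.595), and edgeR and DESeq2 called it. DESeq2 also called miR-n102, for which limma gave 0.12 (adjusted p = 0.977) and which was at 0 in all SS HSD libraries.

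The seed partner of miR-196b-5p, miR-196a-5p, was rare and followed the same libraries, with 10.96, 0, 3.14, 0.755 and 6.50 nRPM in SS NSD and at most 1.70 nRPM in any library of the other groups. The difference was 1.79 (unadjusted p = 0.00771, adjusted p = 0.570), and it was called without SS NSD replicate 3 (2.26, adjusted p = 0.0397). The S2Bb NSD values of 0 to 0.175 nRPM are at or near the level of 3 reads, and whether reads were exchanged between the pair was not tested. Of the other Hox cluster microRNAs, the abundant miR-10a-5p had a difference of -0.52 (unadjusted p = 0.0359) and miR-10b-5p one of 0.57 (unadjusted p = 0.0898), so the 6 tested members went 4 higher and 2 lower. Without SS NSD replicate 6, 5 members were tested, 2 higher and 3 lower. miR-10b-5p stood at 88681 to 213598 nRPM in SS NSD, above the 78154 to 85964 nRPM of SS HSD, without overlap.

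The other microRNAs with small p values did not pass the adjustment. miR-221-5p, the minor strand of a microRNA of proliferating smooth muscle, held 21.1 to 33.9 nRPM (median 26.3) in S2Bb NSD and 14.2 to 19.96 nRPM (median 16.2) in S2Bb HSD. SS libraries held 17.2, 20.3, 14.7, 20.96 and 8.35 nRPM on normal and 17.7, 14.1, 24.3, 26.1 and 20.5 nRPM on high salt. As with miR-204-5p, the S2Bb diets did not overlap and the SS diets did. The responses were -0.62 in S2Bb and 0.35 in SS, with a difference of -0.97 (95% interval -1.57 to -0.36, unadjusted p = 0.00295, adjusted p = 0.347). The major strand of the same hairpin, miR-221-3p, had a difference of -0.20 and its cluster partner miR-222-3p one of -0.47.

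miR-199a-5p, a microRNA of fibroblasts and mesenchymal cells, had the larger response estimate in SS, and its difference was not called. SS libraries held 362, 430, 520, 648 and 563 nRPM on normal and 759, 695, 777, 713 and 742 nRPM on high salt, without overlap. S2Bb libraries held 488 to 723 nRPM on normal and 568.1 to 655 nRPM on high salt, where 1 range lay inside the other. The responses were 0.57 in SS and 0.01 in S2Bb, and the difference was -0.56 (95% interval -0.98 to -0.15, unadjusted p = 0.00943, adjusted p = 0.570). The opposite strand, miR-199a-3p, had a difference of -0.01.

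miR-223-3p, a microRNA of neutrophils and monocytes, was rare. It held 3.59 to 5.53 nRPM (median 4.14) in S2Bb NSD and 4.96 to 11.1 nRPM (median 6.18) in S2Bb HSD. SS libraries held 4.08 to 6.55 nRPM on normal and 3.14 to 5.32 nRPM on high salt, so the groups overlapped in both strains. The difference was 0.90 (95% interval 0.35 to 1.45, unadjusted p = 0.00251, adjusted p = 0.347). miR-221-5p, miR-199a-5p, miR-196a-5p and miR-223-3p were called by DESeq2, with adjusted p of 0.0495, 0.0418, 0.0241 and 0.0404, and, apart from the fit named for miR-196a-5p, in no other alternative.

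Endothelial miR-126a-5p held 1162 to 2335 nRPM (median 1326) in S2Bb NSD and 1965 to 3068 nRPM (median 2537) in S2Bb HSD. The SS libraries held 1220 to 2492 nRPM on normal salt and 677 to 2493 nRPM on high salt, with the lowest in the shallow replicate 2. Its difference was 0.87 (unadjusted p = 0.0331), or 0.57 (unadjusted p = 0.0811) without that library, while the other strand of that hairpin, miR-126a-3p, had one of 0.16. Without SS HSD replicate 2 that of miR-126a-3p was -0.03. The remaining microRNAs named by their small p and a mean of at least 10 nRPM were higher for miR-30e-3p (0.62), miR-30a-3p (0.62), let-7f-5p (0.66) and miR-1839-5p (0.49). They were lower for miR-455-3p (-0.90), miR-31a-5p (-0.48), miR-26a-5p (-0.59) and miR-23b-3p (-0.56). Their adjusted p values were 0.570 for miR-30e-3p and 0.595 for the other 7. Leaving out 1 library moved 2 of these 8 by over 1.5 times, let-7f-5p to 0.38 without SS HSD replicate 2 and miR-30a-3p to 0.40 without SS NSD replicate 6.

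Groups of related microRNAs are described by counts of estimates and by medians, to be read against all 470, of which 253 (53.8%) had an estimate above 0 and whose median was 0.04. Of 16 inflammation microRNAs tested, 11 were higher and 5 lower, with a median of 0.25 (0.16 without S2Bb HSD replicate 1 and 0.41 without S2Bb NSD replicate 2). An unadjusted p under 0.05 was reached by 4 higher members (miR-34a-5p, miR-146b-5p, miR-212-5p and miR-223-3p) and by 2 lower ones (miR-31a-5p and miR-221-5p), and 0 were called. The shares over all 470 at that level were 4.26% higher and 3.4% lower. miR-34a-5p, a target of p53 that is named here after its values were seen, had a difference of 0.84 (unadjusted p = 0.0197). In S2Bb alone 3 of the 16 rose with diet, against a background of 1.7% of all 470, and 0 fell, against 1.7%. Of the 3, miR-132-3p and miR-212-5p share a transcript, and the other is miR-146b-5p. Of the 16, 5 had an S2Bb estimate below 0, among them miR-221-5p at -0.62, which was not called.

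All 8 let-7 family members tested had a difference above 0, with a median of 0.30 and a range of 0.08 to 0.66. Without SS HSD replicate 5 or SS NSD replicate 6, 7 of 8 were above 0, with let-7b-5p at -0.057 and -0.11. Without SS HSD replicate 2 all 8 were, with a median of 0.22. These microRNAs share 1 seed and restrain growth genes. In SS all 8 estimates were below 0 on high salt, and in S2Bb 7 of 8 were, at a smaller size (medians of -0.46 and -0.10). Over all 470, 47.4% of the SS and 52.6% of the S2Bb estimates were above 0. With all 22 libraries let-7f-5p had the only unadjusted p under 0.05. Without SS HSD replicate 2 it was at 0.38 (limma unadjusted p = 0.101) and let-7c-5p at 0.48 (limma unadjusted p = 0.0455). Since reads of near-identical members can be split in counting, the members are not separate observations. Of 9 members of the miR-17-92 clusters 6 were higher (median 0.27, or 0.11 without SS NSD replicate 2). Of 11 miR-30 family members 7 were higher (median 0.12), and 5 without SS NSD replicate 6 (median -0.0021). Of 11 fibrosis microRNAs 5 were higher and 6 lower (median -0.01). For the imprinted Dlk1-Dio3 cluster 6 of 13 were higher, and for the miR-322 cluster 3 of 6.

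Of the 470, 240 were matched in RefSeq, and the others were not placed on a chromosome. Of those matched, 6 have all their RefSeq loci on chromosome 2, the chromosome of the BN segment. Their differences were 0.76 for miR-582-3p (unadjusted p = 0.0437), 0.46 for miR-92b-3p, 0.33 for miR-15b-5p, 0.20 for miR-190b-5p, -0.24 for miR-16-5p and -0.45 for miR-186-5p. Without SS HSD replicate 2 they were, in the same order, 0.71, 0.90, 0.53, 0.11, -0.38 and -0.50. The 0.90 of miR-92b-3p then had a limma unadjusted p of 0.00497 and an adjusted p of 0.258. None was called, and whether each lies inside the segment cannot be read from the labels. miR-204-5p and miR-211-5p are on another chromosome.

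Cell type markers were read as levels in whole tissue, where fewer cells of a type and less RNA per cell cannot be told apart. The 5 white blood cell markers tested all had a difference above 0 (median 0.31), with 1 unadjusted p under 0.05, that of miR-223-3p. Without SS HSD replicate 2 all 5 were above 0 (median 0.46), with miR-142-3p at 0.039 and miR-142-5p at 0.061. Without SS NSD replicate 6, 4 of 5 were, with miR-150-5p at -0.18. Their summed level was 195 to 322 nRPM in S2Bb NSD and 274 to 334 nRPM in S2Bb HSD, and 194 to 481 nRPM in SS NSD and 238 to 323 nRPM in SS HSD, which overlap in both strains. The part of these cells in the values of miR-146b-5p and miR-223-3p was not tested. The 5 neuron markers tested had a difference above 0 (median 0.36). Without SS HSD replicate 2, 4 of 5 did (median 0.39), with miR-338-3p at -0.0077 and miR-218a-5p, 0.36 with all libraries, at 0.047. Their sum was 115 to 190 nRPM in S2Bb NSD and 160 to 278 nRPM in S2Bb HSD, 105 to 182 nRPM in SS NSD and 89.7 to 181 nRPM in SS HSD. Their part in the values of miR-138-5p, itself on that list, was not tested.

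The 3 red blood cell markers tested were all lower (median -0.56), led by miR-451-5p with -1.53 (unadjusted p = 0.0418). Without S2Bb NSD replicate 5 the median was -0.23 and miR-451-5p was at -1.01 (unadjusted p = 0.0684). The value of 59.3 nRPM in S2Bb NSD replicate 5 stood beside 5.07 to 7.05 nRPM in the other S2Bb NSD libraries. In that library miR-204-5p was at 498 nRPM, within the range of its group. Of the 4 smooth muscle strands 2 were higher and 2 lower, from 0.20 for miR-143-3p to -0.61 for miR-145-5p (unadjusted p = 0.0665), and without SS HSD replicate 2 all 4 were lower. Their sum was 509219 to 742576 nRPM in S2Bb NSD and 446257 to 662103 nRPM in S2Bb HSD, against 483994 to 718198 nRPM in SS NSD and 237274 to 637106 nRPM in SS HSD. The 5 epithelial markers, 3 higher and 2 lower (median 0.15, or -0.063 without S2Bb HSD replicate 1), summed to 30.5 to 99.1 nRPM over all groups. The part of epithelial cells in the values of miR-204-5p was not tested. Fat markers went 2 higher and 2 lower, striated muscle markers 1 and 2, liver markers 0 and 2 and endothelial strands 2 and 0 (1 and 1 without SS HSD replicate 2), and the 1 hypoxia microRNA tested, miR-210-3p, was lower. No member of these lists was at 0 in all 22 libraries.

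**Figure D5:**
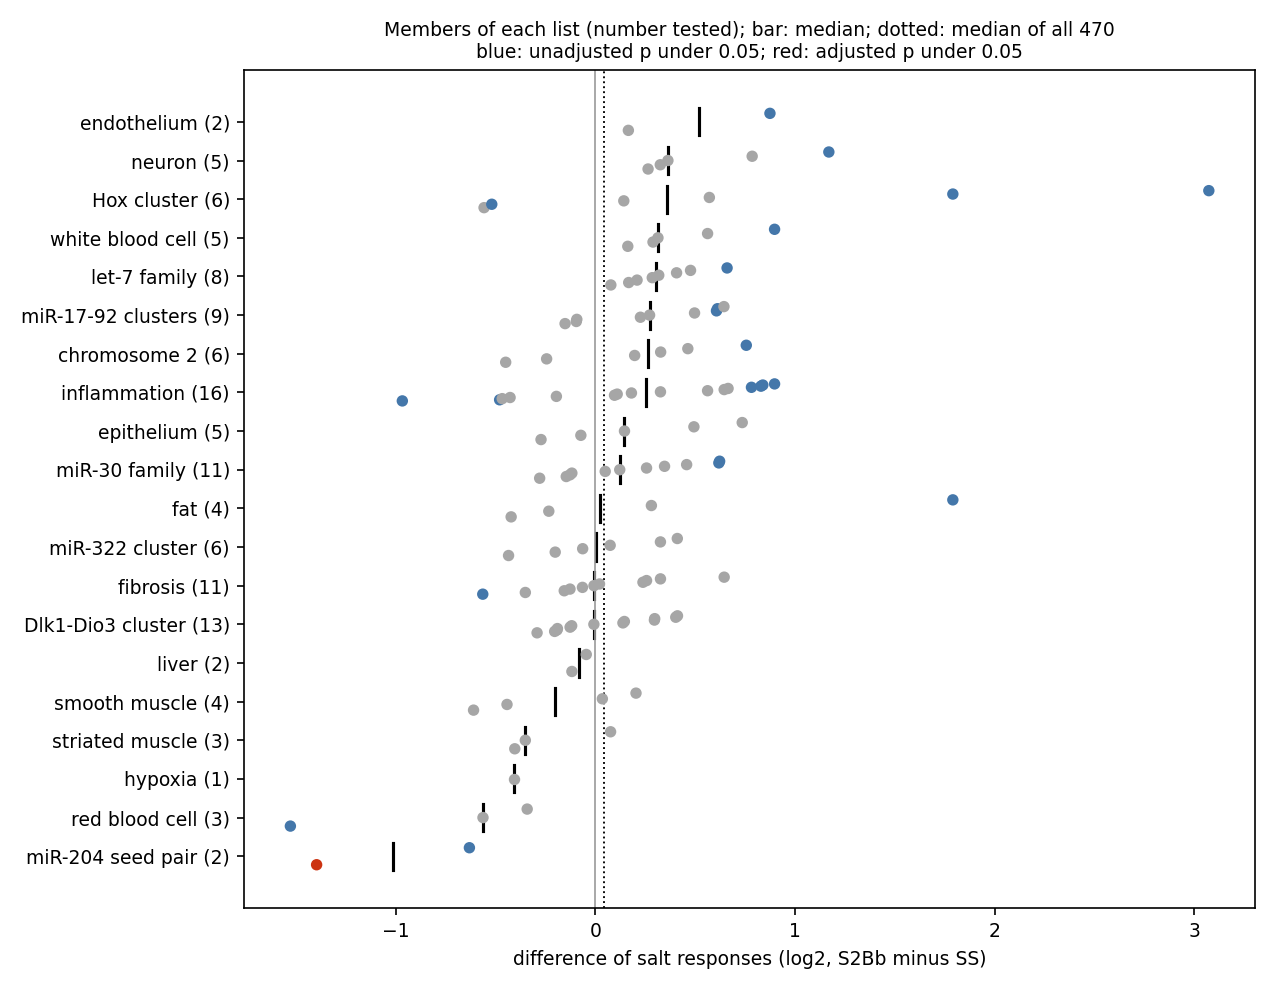
Difference of salt responses (x axis, log2, S2Bb minus SS) of each tested member (points) of the lists (y axis, number tested in brackets), with the list's median as a bar and the median of all 470 (0.04) as a dotted line; blue marks an unadjusted p under 0.05 and red a call. With all 22 libraries the let-7 family, white blood cell and neuron members lie above 0, which 1 member of each list does not without SS NSD replicate 6 (let-7b-5p, miR-150-5p) or SS HSD replicate 2 (miR-338-3p), and the red blood cell members and the miR-204 seed pair below it.

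The precision of the design bounds what could be seen. The median SE of the difference was 0.338 and the median 95% interval reached 0.698 (log2) to either side. The SE was smaller for each arm, with medians of 0.228 in S2Bb and 0.250 in SS. The fit shares its variance over the groups, so these SEs differ by the number of libraries alone. Libraries of SS were more variable, with a median within-group SD of 0.445 on normal and 0.466 on high salt, against 0.303 and 0.269 in S2Bb (log2). By these medians the shared variance overstates the error of the S2Bb arm and understates that of the SS arm. With 1 call, an equal response of the other 469 was not shown.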

How the data were processed

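Per the labels, libraries were made with the TruSeq small RNA kit from 1 microgram of total RNA (integrity number 8 or more), and read as 51 bp single ends. Per the submitters' processing notes the tools were STAR 2.3.1, edgeR 3.6.8, R 3.2.3, FastQC and bcl2fastq 1.8.4. What each did, the build, the annotation and how values were normalized were not given in the sources used here. What the authors deposited is a normalized signal per microRNA and library. All values (100%, tolerance 1e-06) were whole multiples of 1 step per library, from which reads were recovered. A level of 3 reads corresponds to 0.0769 to 0.941 nRPM; such floors cover counting error only. Columns summed to 0.726 to 1.30 M.

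Values were fitted as log2(value + 1), which understates changes of rare microRNAs, with limma 3.58.1 (R 4.3.3; intensity trend, 1 mean per group), and p-values adjusted over 470 microRNAs. edgeR 4.0.16 and DESeq2 1.42.0 on the recovered reads were alternatives, beside other scalings, filters, pseudocounts, weights and samples. The fit was tested on simulated data with known changes and the same dispersion in every group. The spreads of the strains are unequal here, so the simulation does not tell how the fit behaves in that case. Named are the calls, the 8 smallest p in each direction and the S2Bb diet calls (miRBase name, mean of at least 10 nRPM), the 2 most abundant members of each list, and their partners by hairpin, transcript or seed; the S2Bb diet calls below that level or listed as miR-n, the chromosome 2 members and miR-34a-5p are named besides. The comparison, its members and the lists were chosen with earlier results of these data known.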

Additional observations from a re-analysis of the deposited data

Results flagged for a closer look

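The salt response of miR-204-5p differed between the strains by the test of the difference itself, -1.40 (log2, S2Bb minus SS).

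In 132 groups of 4 libraries or more, over 33 microRNAs, Dixon's criterion set 14 single values apart from their group. It was applied to nRPM values without a log. Chance sets apart about 1 in 20 groups if values are normally distributed, which was not tested, so the 14 are not read as an excess. SS HSD replicate 2, the shallow library, held 3 of them. It had 9749 nRPM of miR-30d-5p (others 4994 to 5777), 133 nRPM of miR-222-3p (59.9 to 75.9) and 2.51 nRPM of miR-212-5p (0.283 to 0.895). SS HSD replicate 6 had 35.5 nRPM of miR-196b-5p, where the others had 6.17 to 10.6. SS NSD replicate 6 had 2403 nRPM of miR-23b-3p (1320 to 1603) and 47.3 nRPM of miR-133b-3p (19.9 to 25.6). The red blood cell microRNA miR-451-5p had a high library in 3 groups, with 20.1 nRPM in SS HSD replicate 1 (4.21 to 7.41), 59.3 nRPM in S2Bb NSD replicate 5 (5.07 to 7.05) and 11.4 nRPM in S2Bb HSD replicate 1 (1.96 to 3.32).

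That last library also held 44.4 nRPM of miR-138-5p, against 6.22 to 20.3. Single high values in S2Bb were 2335 nRPM of miR-126a-5p in NSD replicate 6 (1162 to 1394), 269 nRPM of miR-221-3p in NSD replicate 2 (156 to 190), 231 nRPM of miR-30a-3p in HSD replicate 6 (183 to 197) and 1.70 nRPM of miR-196a-5p in HSD replicate 5 (0 to 0.577).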

How the results depend on the processing

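For the difference between the strains, the count of 1 call became 2 in the fit of all 6 groups and with the filter at 10 nRPM, 3 with edgeR and 8 with DESeq2. It became 0 when scaled to total reads and 0 without S2Bb HSD replicates 2 and 3, where 25 and 24 had an unadjusted p under 0.05. miR-204-5p was called in 15 of 17 alternatives, at -1.46 to -1.30. The fit of all 6 groups, the changed filters, group weights and robust variance keep the group means, so there the estimate could not move. Leaving out 1 library gave 0 to 3 calls, with 0 in the 8 cases named for miR-204-5p, 2 without SS HSD replicate 6 and 3 without SS NSD replicate 3. The 16 diet calls in S2Bb became 29 with 6 groups, 7 with total-read scaling, 38 with DESeq2, 61 with voom, 48 with group weights, 31 with a depth covariate, 37 without SS HSD replicate 2 and SS NSD replicate 6, 5 without S2Bb HSD replicates 2 and 3 and 33 when each strain was fitted alone; leaving out 1 library gave 7 to 32, with 7 without S2Bb HSD replicate 1, 8 without HSD replicate 4, 9 without NSD replicate 5, 10 without NSD replicate 1 or 4 and 32 without SS HSD replicate 2. The 0 calls in SS became 5 with 6 groups, 2 with the identical column kept, 4 with the filter at 10 nRPM, 4 with edgeR and 12 with DESeq2, and 0 to 6 with 1 library left out. The causes were not tested. Total-read scaling moved the median response of all microRNAs from 0.03 to 0.12 in S2Bb and from -0.02 to 0.13 in SS.

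The difference changed sign for miR-199a-3p with the identical column kept (0.030), a depth covariate (0.067), without S2Bb HSD replicates 2 and 3 (0.053) and with scaling to the total without miR-143-3p (0.017), a setting chosen after seeing the data. It changed sign with voom for miR-127-3p (0.079), miR-126a-3p (-0.061) and miR-143-3p (-0.062), and without SS HSD replicate 2 and SS NSD replicate 6 for miR-127-3p (0.059) and miR-126a-3p (-0.032). For miR-181a-5p it was -0.079 with edgeR and -0.018 with DESeq2, and for miR-30b-3p 0.019 without S2Bb HSD replicates 2 and 3. With 1 library left out, ranges that crossed 0 were -0.20 to 0.068 for miR-199a-3p, -0.15 to 0.11 for miR-194-5p, -0.34 to 0.13 for miR-127-3p, -0.028 to 0.26 for miR-126a-3p, -0.054 to 0.31 for miR-143-3p, -0.011 to 0.33 for miR-181a-5p and -0.38 to 0.080 for miR-30b-3p. They also crossed it for miR-30d-5p (-0.0021 to 0.30), miR-338-3p (-0.0077 to 0.39), miR-365-3p (-0.39 to 0.0094) and miR-434-3p (-0.35 to 6.9e-04). None of these was called in any fit.

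No paired analysis was possible because replicate numbers follow accession order and the labels name no litter, batch or day. Rare microRNAs are limited by depth, above all in SS HSD replicate 2, where 3 reads equal 0.941 nRPM.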
